A study of Mus musculus with 28 samples.

Results

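Thbs4-positive astroglial cells were single cells, sorted from the subependymal zone (SEZ) of adult mice, the stem cell niche of the lateral ventricles, that carried both an astroglial signature and transcripts of Thbs4. A well was a member if it held at least 1000 estimated transcripts outside the ERCC spike-in RNA, at least 30 transcripts per 10000 from the summed astroglial genes Slc1a2, Slc1a3, Aldoc, Clu and Aqp4, and at least 2 Thbs4 transcripts. Of 2688 wells, 1789 passed the first criterion, 762 passed the astroglial gate and 76 were members. They were compared with 645 wells of the same gate that had 0 Thbs4 transcripts (Thbs4-0 wells). The 41 gated wells with 1 Thbs4 transcript were kept apart.

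The series profiled 7 fluorescence-activated sorts by SORT-seq, a plate-based form of CEL-seq that reads the 3′ ends of polyadenylated RNA. Each sort gave 4 libraries of 96 wells, as many as 1 plate of 384 wells. The number of mice behind a library is not stated, nor whether libraries came from separate mice. The p-values therefore measure the spread between libraries, which may be technical.

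All mice were Bl/6. Day-60 tdTomato cells came from mice of 16 to 19 weeks heterozygous both for a tamoxifen-inducible Cre in the Mki67 gene and for a Rosa-tdTomato reporter, so that 1 dose of 5 mg tamoxifen labelled cells that then expressed Mki67, and sorting followed 60 days later. Day-2 tdTomato cells came from the same line at 8 to 10 weeks, 2 days after the dose. The mixed day-60 sort joined labelled SEZ and olfactory bulb cells with O4-positive oligodendrocytes, from mice of 8 to 19 weeks. GLAST/EGF cells were taken by an antibody to GLAST (encoded by Slc1a3), by binding of labelled EGF, or by both. Since Slc1a3 is also a gate gene, that sort partly shares its selection with the gate. Prom1/CD24 cells were taken with antibodies to Prom1 and CD24, Ki67-RFP cells by a homozygous reporter in Mki67, and Troy-GFP cells by a heterozygous knock-in of GFP and inducible Cre at Tnfrsf19, the gene of Troy. Those last 4 sorts came from mice of 8 to 10 weeks.

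Astroglia of the SEZ include quiescent neural stem cells and ordinary niche astrocytes, and both carry glutamate transporters and other shared astrocyte genes. Stem cells leave quiescence through activated states that express Egfr and give rise to neuroblasts, while Notch, BMP and secreted Wnt modulators of the niche are known to bear on quiescence. Thbs4 encodes thrombospondin 4, a secreted matrix protein known as a product of SEZ astroglia. In the mm10 build, Thbs4 lies at chr13:92751590-92794818 on the minus strand, Gfap at chr11:102887336-102900912 (minus), Sfrp1 at chr8:23411502-23449632 (plus), Ecel1 at chr1:87147655-87156521 (minus) and Notum at chr11:120653788-120661175 (minus), per GENCODE M21.

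The members lay inside the astroglial gate rather than at its edge. Their gate value ran from 45.1 to 508 per 10000 with a median of 243. The values of Thbs4 itself reached down to the threshold: 20 members had 2 transcripts, 12 had 3 and 14 had 10 or more, with a median of 4.03 and a highest well of 34.2. Just outside, 41 gated wells had 1 Thbs4 transcript, and 5 of 1027 passing wells outside the gate had at least 2, with gate values of 17.8 per 10000 or less. The members were chosen by these measured values, which are therefore a description without a test. Members held 1842 to 11530 transcripts, with a median of 5214, against a median of 5010 in Thbs4-0 wells and 5628 in wells with 1 Thbs4 transcript.

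The other named markers of these cells were Gfap, an intermediate filament gene of astroglia and stem cells, Sfrp1, a secreted Wnt antagonist, Ecel1, an endopeptidase-like membrane protein, and Notum, a secreted enzyme that removes the lipid from Wnt proteins. They were chosen with earlier results of these data known, so their values are no independent support for the name. Sfrp1 transcripts were found in 51 of 76 members (67.1%, exact 95% binomial interval 55.4 to 77.5%), against 22.8% of Thbs4-0 wells. Notum was found in 38.2% of members, against 8.68% of Thbs4-0 wells. Gfap was found in 34.2%, against 7.75%, and Ecel1 in 22.4%, against 3.57%. Wells with 1 Thbs4 transcript lay between both classes for all 4 genes, at 43.9% for Sfrp1, 24.4% for Notum, 12.2% for Gfap and 17.1% for Ecel1.

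Many members held several of the 4 markers. Whether the markers occurred together beyond their separate shares was not tested. At least 2 of the 4 were found in 39 of 76 members (51.3%), 11 of 41 wells with 1 Thbs4 transcript (26.8%) and 58 of 645 Thbs4-0 wells (8.99%). None was found in 13 members, against 439 Thbs4-0 wells, and all 4 in 2 members. After each well was thinned to 2000 transcripts, which left out 1 member and 23 Thbs4-0 wells, detection was 42.7% against 12.1% for Sfrp1, 21.3% against 4.98% for Notum, 21.3% against 3.70% for Gfap and 14.7% against 2.73% for Ecel1. In passing wells outside the gate of the Ki67-RFP and day-2 sorts, which had a median of 5265 transcripts, Gfap was found in 0.385%, Ecel1 in 0.769%, Notum in 4.81% and Sfrp1 in 23.3%. The Sfrp1 share of Thbs4-0 wells was thus at the level seen outside the gate. Intervals cover counting error only.

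Shares of wells pooled over sorts, here and below, mix the sorts unequally, since Troy-GFP gave 54 of 76 members but 175 of 645 Thbs4-0 wells. Pooled in this way, Xist, expressed in female cells, was found in 9 of 76 members (11.8%), against 192 of 645 Thbs4-0 wells (29.8%). Whether the classes or the sorts differed in sex was not tested. Within Troy-GFP, Gfap was found in 27.8% of members, against 8.57% of Thbs4-0 wells, and Sfrp1 in 66.7%, against 18.3%. Within day-60 tdTomato, Gfap was found in 7 of 12 members, against 14 of 282 Thbs4-0 wells, and Notum in 5, against 5. In GLAST/EGF, Ecel1 was found in 1 of 8 members, against 15 of 112 Thbs4-0 wells (13.4%), and Notum in 3, against 30 (26.8%). The shares of these 2 genes in GLAST/EGF thus lay closer together than in the other sorts, on 8 members, and this was not tested.

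Members were unevenly spread over the sorts. Troy-GFP gave 54 of the 76 (71.1%), day-60 tdTomato 12, GLAST/EGF 8 and Prom1/CD24 2. The share of gated wells that were members was 1.27%, 6.85%, 5.41% and 2.70% in the 4 day-60 tdTomato libraries. It was 2.94%, 15.4%, 0% and 7.14% in the GLAST/EGF libraries and 19.1%, 24.2%, 23.6% and 19.4% in the Troy-GFP libraries. Every Troy-GFP library lay above every library of the other two sorts.

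The mean share was 4.06 ± 2.53% in day-60 tdTomato, against 21.6 ± 2.70% in Troy-GFP (SD, n = 4 libraries each). The difference of -17.5 percentage points had p = 0.0286 in a 2-sided exact permutation test, the smallest p that 4 against 4 libraries allow, and an adjusted p of 0.0429 over 3 pairs. GLAST/EGF averaged 6.37 ± 6.69%, against the same Troy-GFP mean (difference -15.2 points, exact permutation p = 0.0286, adjusted p = 0.0429). Day-60 tdTomato and GLAST/EGF differed by -2.31 points (exact permutation p = 0.6), less than the spread of the GLAST/EGF libraries. With wells of 1 Thbs4 transcript counted as members, the same difference was -7.70 points and passed (exact permutation, adjusted p = 0.0286). With wells thinned to 2000 transcripts the shares were 4.48 ± 2.90% in day-60 tdTomato, 7.12 ± 5.35% in GLAST/EGF and 21.1 ± 4.58% in Troy-GFP.

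No member was found among 8 gated Ki67-RFP wells, 7 gated day-2 tdTomato wells or 44 gated wells of the mixed sort. Counts of 0 of this size allow shares of up to 37.5%, 42.9% and 6.82%, so they cannot tell a share like that of Troy-GFP from 0 in Ki67-RFP and day-2 tdTomato. Both Prom1/CD24 members came from library 2, where they made up 2 of 9 gated wells.

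**Figure D1:**
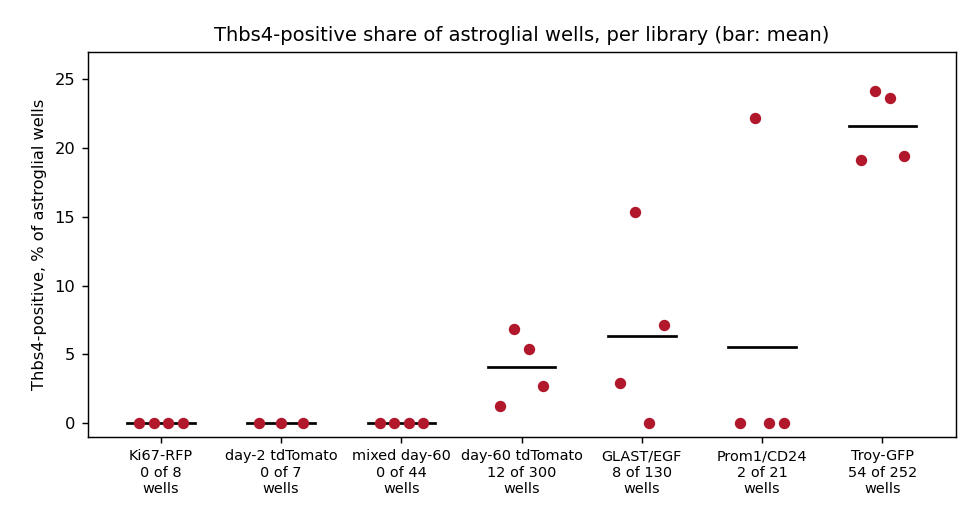
Share of gated astroglial wells that were Thbs4-positive (y axis, percent) in each library (points), by sort (x axis, with members and gated wells pooled). Bars are means over libraries; the 4 Troy-GFP libraries lie between 19.1% and 24.2%, above all libraries of day-60 tdTomato and GLAST/EGF, while the Prom1/CD24 point at 22.2% rests on 2 of 9 wells.

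To compare the 2 classes over all genes, transcripts were summed per library and class in the 8 libraries with at least 3 wells of each, which held 70 members and 367 Thbs4-0 wells: 4 of Troy-GFP, 2 of GLAST/EGF and 2 of day-60 tdTomato. Levels below are transcripts per 1000000 (CPM) of these sums, and log2 folds are Thbs4-positive over Thbs4-0 within a library, from limma voom, with standard errors. Of 4205 genes tested, 658 passed at a Benjamini-Hochberg adjusted p below 0.05 (15.6%), 419 higher (9.96%) and 239 lower (5.68%) in Thbs4-positive wells. The median fold of all genes was 0.12. Thbs4-positive sums held 19638 to 82497 transcripts, against 106765 to 382661 in Thbs4-0 sums. With Thbs4-0 sums thinned to the depth of their partner, 163 of 4194 genes were higher (3.89%) and 200 lower (4.77%), and 158 higher and 179 lower genes were called in both fits. A fit with a common mean-variance trend in place of voom weights (limma trend) called 101 genes, 28 higher and 73 lower. With scaling by trimmed means over all genes, rather than over genes with a mean of at least 200 CPM, the median fold was -0.15, and 142 genes were higher and 422 lower.

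All 4 markers passed the test by voom, but they were chosen with earlier results known, so these tests are no independent support. Gfap and Ecel1, the latter with a mean of 29.9 CPM in Thbs4-0 sums, reached the mean of 50 CPM needed for testing through the Thbs4-positive sums. Sfrp1 had 83.8 to 552 CPM in Thbs4-positive sums, with a median of 405, against 10.2 to 360 CPM with a median of 47.7 in Thbs4-0 sums. It was higher in 8 of 8 libraries, by a log2 fold of 2.63 ± 0.29 (limma adjusted p = 1.87e-09). Gfap had 166 and 854 CPM in the day-60 tdTomato Thbs4-positive sums, 48.4 and 0 in GLAST/EGF and 77.8, 136, 161 and 391 in Troy-GFP, against 6.95 to 37.5 CPM over all Thbs4-0 sums. It was higher in 7 of 8 libraries, by 3.70 ± 0.40 (limma adjusted p = 1.87e-09), the exception being GLAST/EGF library 4, and by 2.88 at equal depth. Notum was higher in 7 of 8 libraries, by 1.96 ± 0.38 (limma adjusted p = 1.77e-04).

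Ecel1 had 267 and 0 CPM in the day-60 tdTomato Thbs4-positive sums and 73.3 to 130 CPM in those of Troy-GFP. In GLAST/EGF it had 0 and 51.9 CPM, below the 125.9 and 67.4 CPM of the Thbs4-0 sums. Its log2 fold was 2.56 ± 0.50 over all 8 libraries (limma adjusted p = 1.83e-04) and -1.07 within GLAST/EGF. At equal depth it was 1.81 over all 8. In the limma trend fit Sfrp1 passed, while Gfap (adjusted p = 0.239), Notum (0.116) and Ecel1 (0.501) did not.

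The gate genes, which the rule used, are given without a test. Slc1a2 (log2 fold 0.02) and Aldoc (0.05) stood at similar levels in both classes. Clu was at 0.56, Slc1a3, the GLAST transporter, at -0.43 and Aqp4, the water channel of astrocyte endfeet, at -1.59. Aqp4 was found in 36% of thinned members, against 77.8% of thinned Thbs4-0 wells.

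Genes listed as enriched in stem-cell-like astroglia were mostly higher in Thbs4-positive wells. This list and those below were chosen with earlier results of these data known. Their counts are therefore no independent support for the name of these cells. Of 25 listed genes, 20 were tested, 11 rose, 1 fell and 8 did not pass, with a median log2 fold of 0.81 beside 0.12 over all genes. Over all genes, 9.96% were higher and 5.68% lower. The 11 were Cpe, S100a6, Vim, Igfbp5, Fxyd1, Dbi, Fbxo2, Id3, Cd9, Tnfrsf19 and Lhx2. At equal depth 9 rose, without Tnfrsf19 and Lhx2, and limma trend called 5 higher. The summed level of the list was 9684 to 21410 CPM in Thbs4-positive sums, against 7602 to 10000 CPM in Thbs4-0 sums, and was higher in 7 of 8 libraries.

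Vim, the intermediate filament vimentin, had 205 to 647 CPM in Thbs4-positive sums with a median of 380, against 39.9 to 223 CPM with a median of 89.3 in Thbs4-0 sums (log2 fold 2.23 ± 0.22, limma adjusted p = 9.54e-11). S100a6, a calcium-binding protein, had a median of 571 CPM, against 81.9 CPM (2.56 ± 0.22, limma adjusted p = 4.40e-12). Cpe, carboxypeptidase E, which trims peptide precursors, had a median of 7523 CPM, against 2653 CPM (1.44 ± 0.11, limma adjusted p = 8.51e-13). All 3 were higher in every library, with overlap between classes, and passed in the limma trend fit.

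Igfbp5, a secreted binding protein of insulin-like growth factors, was found in 68 of 76 members (89.5%), against 41.7% of Thbs4-0 wells and 40.8% of wells outside the gate of the Ki67-RFP and day-2 sorts. Its log2 fold was 2.21 ± 0.22 over all libraries (limma adjusted p = 2.74e-10) and -0.22 within GLAST/EGF. There the Thbs4-positive sums had 291 and 313 CPM, against 454 and 302 CPM in Thbs4-0 sums. Vim was also found in 70.96% of the 520 wells outside the gate of the Ki67-RFP and day-2 sorts, and S100a6 in 4.42%.

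Fabp7, a fatty-acid-binding protein of radial glia and astroglia, was the listed gene that fell (log2 fold -1.21 ± 0.25, limma adjusted p = 5.54e-04). Sox9, Sox2, Hopx, Nr2e1 and Cd81 did not pass, with folds of 0.04, 0.29, -0.05, 0.23 and 0.08. Tnfrsf19, the gene of the Troy reporter, was found in 43 of 76 members (56.6%), against 288 of 645 Thbs4-0 wells (44.7%). By sort, the shares were 10 of 12 members against 133 of 282 Thbs4-0 wells in day-60 tdTomato, 4 of 8 against 46 of 112 in GLAST/EGF and 28 of 54 (51.9%) against 73 of 175 (41.7%) in Troy-GFP, the sort made on this gene. Its fold of 0.70 passed (limma adjusted p = 0.0210), but not at equal depth (0.173). Lhx2, a forebrain homeobox gene, was at 0.53 and lost its call in 5 of the 8 fits without 1 library, with a fold of 0.44 without GLAST/EGF library 2 and 0.40 to 0.54 without each Troy-GFP library.

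Mature astrocyte genes were mostly lower. Of 34 listed genes, 33 were tested, 21 fell, 1 rose and 11 did not pass, and the median log2 fold was -0.99 beside 0.12 over all genes. Over all genes, 5.68% were lower and 9.96% higher. At equal depth 22 fell and 1 rose, and limma trend called 13 lower. The summed level was 12760 to 28080 CPM in Thbs4-positive sums, against 22040 to 35910 CPM in Thbs4-0 sums, lower in 8 of 8 libraries.

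Htra1, a secreted serine protease, had 262 to 768 CPM in Thbs4-positive sums with a median of 372, against 891 to 1929 CPM with a median of 1617 in Thbs4-0 sums. The classes did not overlap, and the log2 fold was -1.84 ± 0.15 (limma adjusted p = 1.58e-12). S100b, a calcium-binding astrocyte protein, had 0 to 60.9 CPM, against 155 to 339 CPM, again without overlap (-2.46 ± 0.35, limma adjusted p = 8.93e-07). Mfge8, a secreted bridging protein for phagocytosis, had 734 to 1627 CPM, against 1908 to 2619 CPM, without overlap (-0.83 ± 0.12, limma adjusted p = 8.68e-07).

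Slco1c1, a thyroid hormone transporter, was at -1.23. The connexins Gjb6 (-1.33) and Gja1 (-0.70), the growth factor receptor Fgfr3 (-1.07), the bicarbonate transporter Slc4a4 (-1.06) and the amino acid transporter Slc7a10 (-1.97) also fell. Mlc1, an astrocyte membrane protein, was the listed gene that rose (0.51). Glul, glutamine synthetase, and Ntsr2 did not pass, at -0.21 and -0.15. With trimmed means over all genes they stood at -0.53 and -0.45 and passed. Agt, angiotensinogen, did not pass either (-0.99, adjusted p = 0.148), and was found in 5 of 76 members, against 150 of 645 Thbs4-0 wells.

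**Figure D2:**
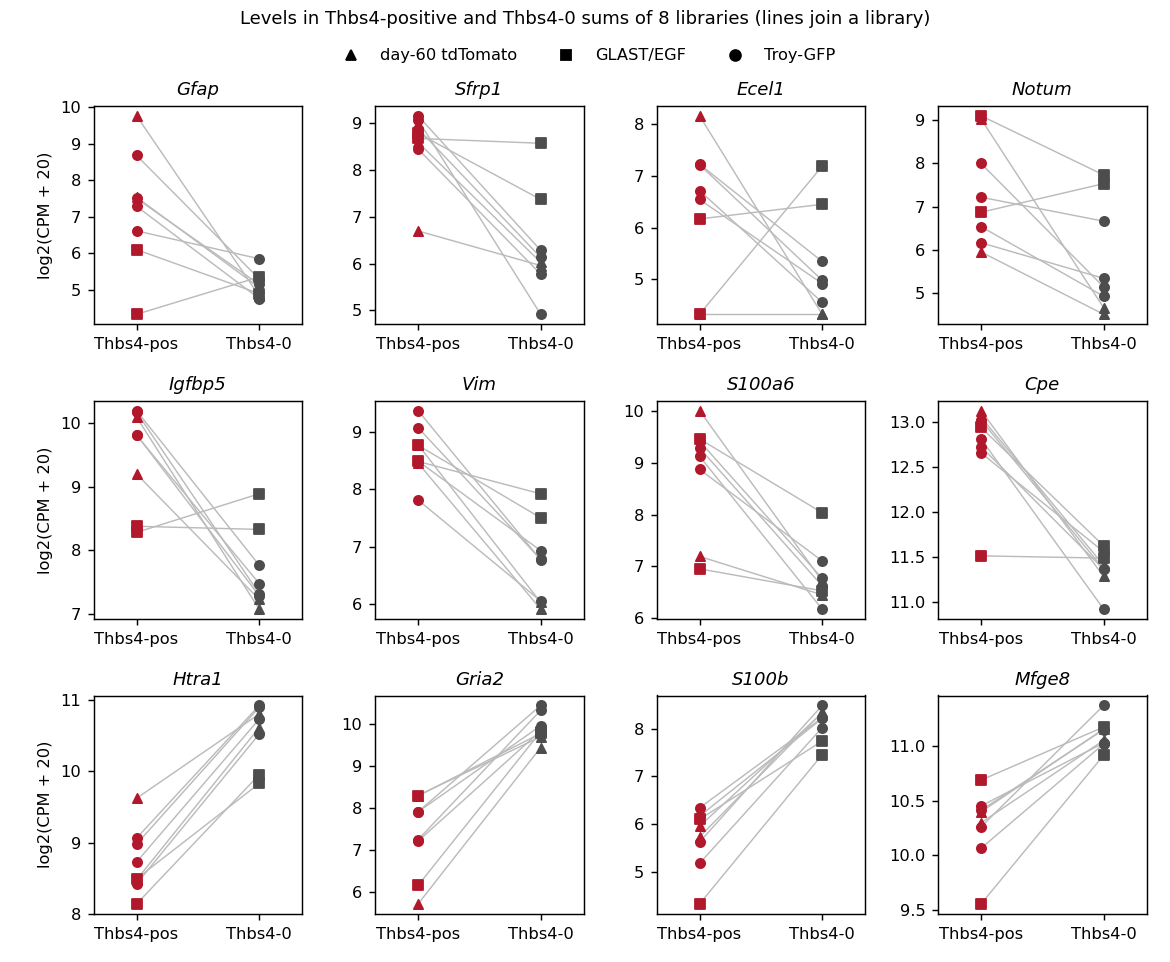
Levels of 12 genes, log2(CPM + 20) on the y axis, in the Thbs4-positive and Thbs4-0 sums of 8 libraries; each point is 1 library sum, marker shape gives the sort, and lines join the classes of a library. Sfrp1, Vim, S100a6 and Cpe are higher in all 8 Thbs4-positive sums, the GLAST/EGF squares stand apart for Gfap, Ecel1 and Igfbp5, and Htra1, Gria2, S100b and Mfge8 do not overlap between classes.

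Several single genes stood out by the size of their fold. Fxyd6, a regulator of the sodium pump, had 156 to 744 CPM in Thbs4-positive sums, against 2.66 to 126.5 CPM in Thbs4-0 sums, and the classes did not overlap (log2 fold 3.46 ± 0.34, limma adjusted p = 9.92e-11). Meg3, a long noncoding RNA placed on the mature neuron list, rose by 2.57 ± 0.31. S100a4, a calcium-binding protein, rose by 2.64 ± 0.42. Fxyd6, with a mean of 41.6 CPM in Thbs4-0 sums, and S100a4 reached the level tested through the Thbs4-positive sums.

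Among the strongest falls, Eps8, an adaptor between growth factor receptors and actin, had 0 to 14.6 CPM in Thbs4-positive sums, against 48.2 to 181 CPM in Thbs4-0 sums (log2 fold -3.13 ± 0.46, limma adjusted p = 1.76e-06). It was found in 0 of 75 thinned members, which allows a share of up to 4.00%, against 158 of 622 thinned Thbs4-0 wells. Car2, carbonic anhydrase 2, had 0 to 125.8 CPM, against 184 to 601 CPM (-2.84 ± 0.42, limma adjusted p = 1.75e-06). Gria2, an AMPA receptor subunit, had 33.01 to 294 CPM, against 671 to 1359 CPM (-2.49 ± 0.22, limma adjusted p = 6.22e-12). None of these 3 overlapped between classes. The share of all tested genes without overlap was not determined, for these or the genes above. Eps8 was at 0 in 6 of 8 Thbs4-positive sums and reached the level tested through the Thbs4-0 sums. In GLAST/EGF library 2 it had 0 against 48.2 CPM, in a Thbs4-positive sum of only 19638 transcripts.

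Elovl2, a fatty acid elongase, Rpe65, a retinoid isomerase known from the retina, Pfkp, a phosphofructokinase, Dhrs3, a retinal reductase, and Il33, an alarmin cytokine, fell by 1.94 to 2.28 on the log2 scale. Each reached the level tested through the Thbs4-0 sums. Elovl2, for example, had a mean of 13.2 CPM in Thbs4-positive sums and was at 0 in 5 of 8. The choroid plexus gene Ttr fell by 2.56. It had 635 and 890 CPM in Thbs4-positive day-60 tdTomato sums, against 4175 and 8721 CPM in the Thbs4-0 sums, and was near 0 in most other libraries. Without 2 members and 61 Thbs4-0 wells in which markers of other cell types exceeded 100 per 10000, its fold was 0.03, and the call ended. Ttr is itself among these markers. Wells could thus be removed for their Ttr, so the lost call follows in part from the filter and decides nothing. The fit without these wells also lost GLAST/EGF library 4, without which alone the fold was -2.75.

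Wnt and Notch genes were next. Of 16 tested genes of the Wnt list of 35, 4 rose and 1 fell, with a median of 0.59 beside 0.12 over all genes, and the same counts held at equal depth. Since 9.96% of all genes were higher and 5.68% lower, the count of lower Wnt genes was near the background. The secreted modulators Sfrp1 and Notum rose as given above, as did the receptor Fzd5 (1.88 ± 0.34, limma adjusted p = 7.14e-05) and the secreted Dkk3 (0.74 ± 0.17, limma adjusted p = 0.00176). Fzd5, with a mean of 43.9 CPM in Thbs4-0 sums, reached the level tested through the Thbs4-positive sums. The count of higher Wnt genes is therefore no support for the list. Dkk3 was at 0.41 and did not pass with trimmed means over all genes, and it was at -0.26 within GLAST/EGF. Lgr4, an R-spondin receptor, fell (-1.51). Axin2, a target gene of the pathway, did not pass. Limma trend called 1 of the list.

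Of 11 tested genes of the Notch list of 20, 0 rose and 4 fell, with a median of -0.48. Beside 9.96% of all genes higher and 5.68% lower, the count of 0 higher was near the background. The 4 that fell were the ligand-like Dner (-2.06 ± 0.45), the feedback regulator Nrarp (-1.67 ± 0.36), the glycosyltransferase Lfng (-0.93 ± 0.28) and the effector Hes5 (-0.59 ± 0.18). The receptors Notch1 and Notch2 did not pass. Lfng lost its call without Troy-GFP library 3 (-0.79) or 4 (-0.84), and Hes5 without Troy-GFP library 1 (-0.59) or 3 (-0.44). Dner was at 0.51 within GLAST/EGF, and limma trend called 0 of the list.

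Of 11 tested genes of the BMP and Id list, 3 rose and 1 fell, where 9.96% of all genes were higher and 5.68% lower, and the median was 0.33. At equal depth 1 rose and 1 fell. Id3, an inhibitor of helix-loop-helix factors downstream of BMP, rose by 0.93 ± 0.17 (limma adjusted p = 4.95e-05). Bmpr1a (0.80), Id4 (0.53) and Id2 (-0.47) passed as well, but none of them passed at equal depth. Each also lost its call without at least 1 library, with folds of 0.69 to 0.76 for Bmpr1a without day-60 tdTomato library 2 or Troy-GFP library 2 or 3, 0.46 to 0.57 for Id4 without day-60 tdTomato library 3 or any Troy-GFP library, and -0.47 to -0.40 for Id2 without any Troy-GFP library.

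Of 14 tested matrix genes of 37 listed, 2 rose and 5 fell, with a median of -0.28. The share of all genes was 9.96% higher and 5.68% lower, so the count of higher matrix genes was near the background. Sparc, a secreted collagen-binding protein, rose by 1.23 ± 0.18. Lamb2, a laminin chain, rose by 1.09, and was at 0.56 without a call at equal depth. The perineuronal matrix genes Bcan (-0.70), Ncan (-1.06) and Hapln1 (-1.79), the laminin receptor subunit Itga6 (-1.73) and Sparcl1 (-0.45) fell. Of the regional patterning genes, Dbx2 fell (-1.15), while Crym (-0.24) and Rorb (0.05) did not pass. Crym was found in 28 of 76 members (36.8%), against 254 of 645 Thbs4-0 wells (39.4%).

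Of 26 tested lipid genes, 4 rose and 6 fell, with a median of 0.00. The higher count was near the background of 9.96%, and the lower one stood beside 5.68% of all genes. Among those that rose were Dbi, the acyl-CoA-binding protein, Scd2, a fatty acid desaturase, and Acot1, a thioesterase. Among those that fell were Acsbg1, Fabp7, Acsl6, Ppap2b and Elovl5. Of 15 tested glycolytic genes, Pfkp (-2.01) and the glucose transporter Slc2a1 (-0.88) fell and 13 did not pass, beside the same 5.68% of all genes lower. Slc2a1 lost its call without any 1 of the Troy-GFP libraries, with folds of -0.91 to -0.74, and at equal depth. Fos, an immediate early gene of the kind that cell dissociation induces, fell (-1.27), while 6 other such genes tested did not pass. Without wells of mixed identity, a fit that also lost GLAST/EGF library 4, it was at -0.41 and did not pass. Without that library alone it was at -1.13 and passed.

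No tested gene of the activated stem cell or cell cycle lists rose. Over all genes 9.96% were higher and 5.68% lower, so 0 higher among so few tested genes is near the background. Of 12 tested genes of the activated list, 0 rose and 2 fell, with a median of -0.05. Egfr, the EGF receptor, had a fold of -0.98 ± 0.27 (limma adjusted p = 0.0109), and was found in 23.7% of members, against 41.9% of Thbs4-0 wells. Within day-60 tdTomato its fold was 0.19, and with a gate of 60 per 10000, where GLAST/EGF library 4 was not fitted, it was at -0.65 and did not pass. Without that library alone it was at -0.95 and passed. Rgcc, a cell cycle regulator, was at -0.89, and lost its call without Troy-GFP library 1 (-0.80) or 3 (-0.68). Of 8 S phase genes and 4 genes of G2 and M phase tested by limma, 0 passed, out of lists of 29 and 31 that were mostly below the level tested, and limma trend also called 0.

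Mki67 was found in 3 of 76 members (3.95%), against 23 of 645 Thbs4-0 wells (3.57%), and Top2a in 7 and 46. Dcx, the neuroblast marker, was found in 0 members, which with 76 wells allows a share of up to 3.95%, against 5 Thbs4-0 wells.

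**Figure D3:**
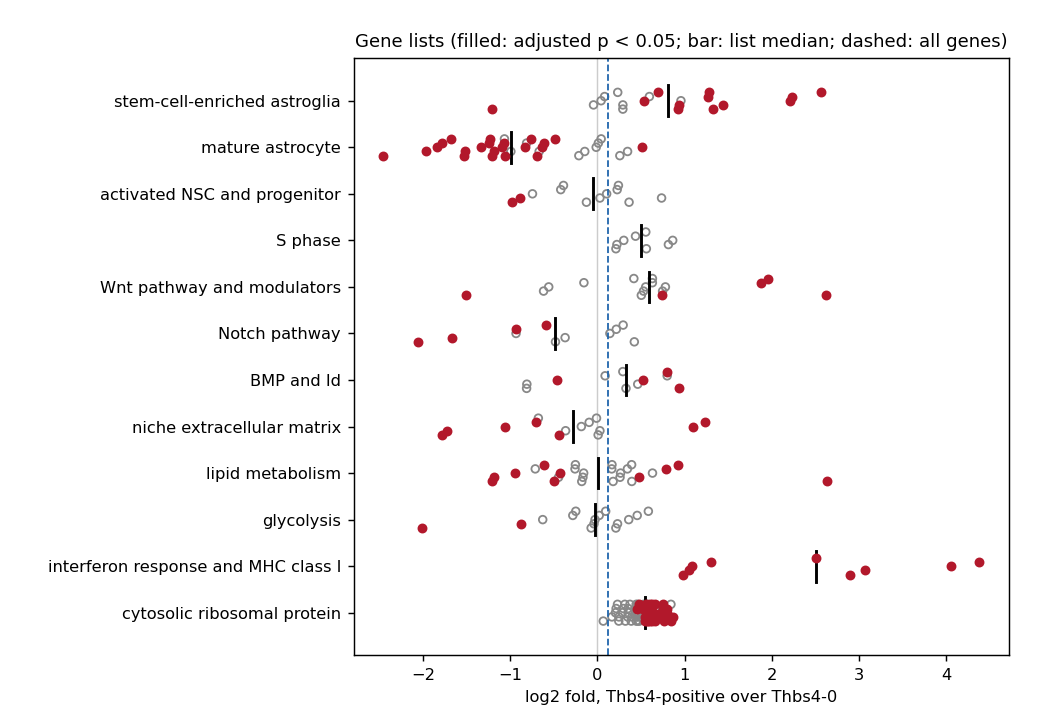
Log2 folds of the tested members of each gene list, Thbs4-positive over Thbs4-0 (x axis), by list (y axis); filled points passed the limma test and open points did not, and the bar marks the list's median. The mature astrocyte list lies mostly below 0 with a median of -0.99, and the stem-cell-enriched list mostly above 0 with a median of 0.81. The lists were chosen with earlier results of these data known.

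The largest positive folds belonged to interferon-inducible genes, and they came from few wells. Of the 12 genes with the highest folds, 8 were of this kind: Isg15, Gbp2, Bst2, Oasl2, Gbp6, Igtp, Ifit3 and Ifit1. They encode a ubiquitin-like modifier (Isg15), guanylate-binding proteins and GTPases (Gbp2, Gbp6, Igtp), the membrane tether tetherin (Bst2) and RNA-sensing or RNA-binding antiviral proteins (Oasl2, Ifit1, Ifit3). All but Gbp6, which was not tested there, passed at equal depth as well, but none of the 8 passed by limma trend.

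Isg15 had 405 and 0 CPM in the day-60 tdTomato Thbs4-positive sums, 48.4 and 0 in GLAST/EGF and 25.8, 0, 288 and 16.1 in Troy-GFP, against 0 to 9.65 CPM in Thbs4-0 sums. Its log2 fold was 4.38 ± 0.52 (limma adjusted p = 1.33e-08), and 2.06 at equal depth. Bst2 had 403 and 41.9 CPM in day-60 tdTomato, 48.4 and 208 in GLAST/EGF and 0, 12.1, 73.3 and 32.2 in Troy-GFP, against 0 to 19.7 CPM in Thbs4-0 sums (4.06 ± 0.47, limma adjusted p = 8.60e-09), and its fold was 2.50 at equal depth. Isg15 was thus at 0 in 3 of 8 Thbs4-positive sums, while Bst2 was at 0 in 1 and higher in 7 of 8 libraries. Folds at equal depth were also lower for Gbp2 (2.98, against 4.21 in full sums), Oasl2 (2.64, against 3.47), Igtp (2.27, against 3.08) and Ifit1 (2.03, against 2.90).

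The 8 genes together gave 496 transcripts in the 76 members, and 5 wells held 77.3% of them. In Thbs4-0 wells they gave 398 transcripts, of which 5 wells held 23.9%. A transcript of at least 1 of the 8 was found in 49 of 76 members (64.5%), against 160 of 645 Thbs4-0 wells (24.8%). In all, 7 members had 10 or more of these transcripts, namely 184, 84.4, 49.1, 45.95, 20.2, 14.1 and 11.1. They came from 5 libraries, 2 of day-60 tdTomato and 3 of Troy-GFP, and 8 Thbs4-0 wells also reached 10. These genes were selected for their folds, so the concentration is a description.

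**Figure D4:**
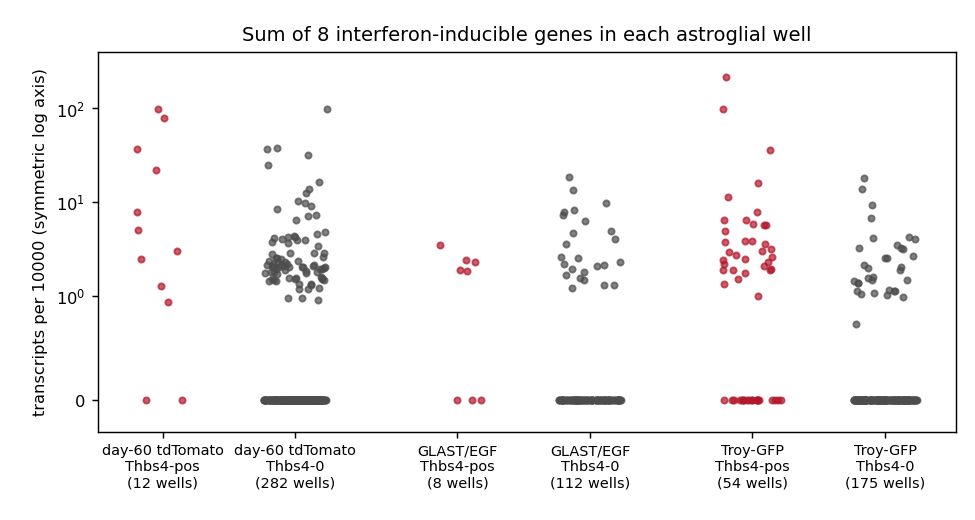
Sum of Isg15, Gbp2, Bst2, Oasl2, Gbp6, Igtp, Ifit3 and Ifit1 in each gated well, as transcripts per 10000 (y axis, symmetric log scale), by sort and Thbs4 class; each point is 1 well. The highest well, at 216 per 10000, is a Thbs4-positive Troy-GFP well, the highest Thbs4-0 well is at 99.6, and most wells are low or at 0.

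Of the 18 listed genes of the interferon response and MHC class I, 9 reached the level tested, and these 9 rose in the voom fit: besides Isg15, Bst2, Ifit1 and Ifit3, also Ifitm3 (2.51, and 1.87 at equal depth), B2m (1.31), H2-D1 (1.08), H2-K1 (1.05) and Ifi27 (0.98). Genes such as Isg15 reached that level through the Thbs4-positive sums, so this count is no support for the list. Limma trend called 1, Ifitm3. Within GLAST/EGF 1 of 6 passed.

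Promoters are shown for 3 of these genes because the summed transcripts of the group were concentrated in few wells. Among 13 interferon-inducible genes called higher, 11 had a promoter of 300 bases (250 before to 50 after the start) in the RefSeq table for GRCm38.p6. Of these, 8 (72.7%) held the letters GAAANNGAAA or the reverse complement TTTCNNTTTC, against 943 of 27025 promoters (3.49%), with overlapping matches counted. The genes were picked as interferon-inducible, some after their folds were seen, and this element is part of what defines such genes, so the share follows from the choice and is no result about these cells. These letters form the core of the interferon-stimulated response element, and a match is a description, not a binding site. Oasl2, H2-D1 and H2-K1 held no match in this window. The 3 sequences below are Isg15 at chr4:156200769-156201068 (minus strand), Ifit1 at chr19:34640639-34640938 (plus) and Bst2 at chr8:71537423-71537722 (minus), 5′ to 3′ along the gene, with matches in capitals.
Isg15: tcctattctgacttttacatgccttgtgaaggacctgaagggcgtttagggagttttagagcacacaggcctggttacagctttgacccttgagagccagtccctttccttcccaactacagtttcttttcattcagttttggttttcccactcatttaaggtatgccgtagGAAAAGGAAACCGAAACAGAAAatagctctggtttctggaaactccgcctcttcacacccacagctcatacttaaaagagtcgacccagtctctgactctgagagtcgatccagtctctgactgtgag
Ifit1: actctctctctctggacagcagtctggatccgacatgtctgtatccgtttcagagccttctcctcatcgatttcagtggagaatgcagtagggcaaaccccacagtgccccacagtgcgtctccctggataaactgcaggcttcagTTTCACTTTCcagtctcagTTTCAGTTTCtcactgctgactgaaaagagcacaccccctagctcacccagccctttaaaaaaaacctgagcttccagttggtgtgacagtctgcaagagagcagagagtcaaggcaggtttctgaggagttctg
Bst2: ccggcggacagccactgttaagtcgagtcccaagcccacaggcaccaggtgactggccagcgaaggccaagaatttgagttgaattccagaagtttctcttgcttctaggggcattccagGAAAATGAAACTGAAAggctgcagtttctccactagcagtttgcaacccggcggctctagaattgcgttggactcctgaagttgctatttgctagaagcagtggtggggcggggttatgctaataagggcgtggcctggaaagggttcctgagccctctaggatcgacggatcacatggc
Isg15 had 3 overlapping matches, and Ifit1 and Bst2 had 2 each.

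Cytosolic ribosomal protein genes rose in part. Of 72 tested, 32 rose and 0 fell, where 9.96% of all genes were higher and 5.68% lower. Their median log2 fold was 0.54 beside 0.12 over all genes. The call depended on the processing: 12 rose at equal depth, 1 with trimmed means over all genes and 0 by limma trend. It also depended on single libraries, with 14 of 73 called without day-60 tdTomato library 2, 11 of 71 without Troy-GFP library 1, 11 of 73 without Troy-GFP library 3 and 50 of 72 without GLAST/EGF library 2. Within the sorts, 66 of 71 passed in day-60 tdTomato, 0 of 73 in GLAST/EGF and 29 of 72 in Troy-GFP.

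Markers of other cell types were in part at 0 in the members and in part present. The genes Pdgfra of oligodendrocyte precursors, C1qa, Cx3cr1 and Aif1 of microglia, Cldn5 and Pecam1 of endothelium, Rgs5 and Acta2 of pericytes and Rbfox3 of neurons were at 0 in all 76, which allows a share of up to 3.95% for each. Over the whole lists, the markers at 0 numbered 5 of 10 for oligodendrocyte precursors, 6 of 13 for microglia, 4 of 12 for endothelium, 5 of 12 for pericytes and 5 of 11 for neurons. They were 5 of 9 for choroid plexus, 3 of 12 for oligodendrocytes, 7 of 18 for neuroblasts and 1 of 18 for ependyma. Found in at least 10% of members were 5 ependymal, 2 choroid plexus, 3 oligodendrocyte, 1 precursor, 1 microglial, 0 endothelial, 2 pericyte, 2 neuronal and 7 neuroblast markers. Among them, Meg3 of the neuronal list was found in 56.6% of members, against 15.7% of Thbs4-0 wells, and Gria2 in 40.8%, against 82.3%. The choroid plexus markers Enpp2 and Ttr were found in 34.2% and 19.7% of members, against 42.02% of Thbs4-0 wells each. Foxj1, the ependymal master regulator of motile cilia, was found in 14 of 76 members (18.4%), against 24 of 645 Thbs4-0 wells (3.72%), and after thinning in 6.67% against 1.61%. The summed ependymal level was 41.9 to 725 CPM in Thbs4-positive sums, with a median of 172, against 56.8 to 881 CPM with a median of 176 in Thbs4-0 sums. Its part in the changes above was not tested. The summed oligodendrocyte level was 193 to 364 CPM, against 209 to 533 CPM.

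Other properties of the wells differed little. Thinned to 2000 transcripts, members had 1245 ± 21.9 genes per well, against 1217 ± 31.5 in Thbs4-0 wells (SD over 8 libraries). The difference of 28.1 ± 33.6 genes, positive in 7 of 8 libraries, had p = 0.0625 in a 2-sided exact sign-flip permutation test, whose smallest p is 0.00781. The ERCC share was 8.42 ± 1.29% against 8.09 ± 0.659% (exact permutation p = 0.328), higher in 4 of 8 libraries.

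The contrast was also fitted within each sort. Within day-60 tdTomato 465 genes passed by limma, within GLAST/EGF 119 (117 higher and 2 lower) and within Troy-GFP 674. The folds of Gria2 were -1.93 in day-60 tdTomato, -1.91 in GLAST/EGF and -2.58 in Troy-GFP, those of Htra1 -1.61, -1.54 and -1.96, and those of Mfge8 -0.79, -0.92 and -0.82. For Sfrp1 they were 2.77, 0.83 and 3.39, and for S100a6 3.05, 1.38 and 2.81. Of the 8 GLAST/EGF members, 4 carried Egfr (50%), against 11 of 54 Troy-GFP members (20.4%). These 8 wells came from 3 libraries, and the difference from the other sorts was not tested.

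**Figure D5:**
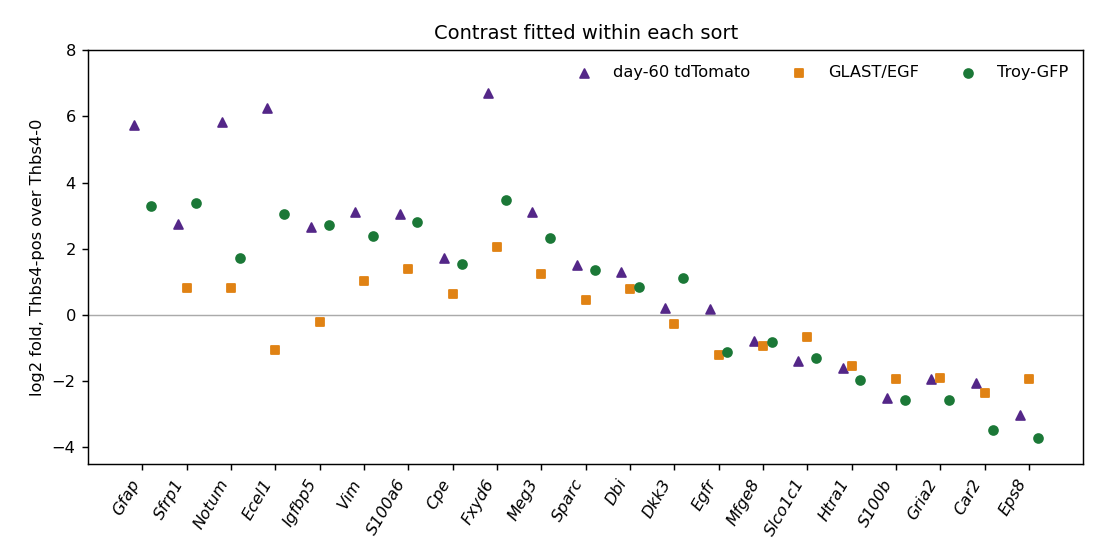
Log2 folds, Thbs4-positive over Thbs4-0, of named genes fitted within each sort (y axis; x axis, genes). Day-60 tdTomato and Troy-GFP points are on the same side of 0 for all genes drawn but Egfr, while GLAST/EGF is below 0 for Ecel1, Igfbp5 and Dkk3; Gfap was not fitted in GLAST/EGF, where its level was below that tested.

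Thbs4-positive wells of labelled progeny were compared with those of the Troy reporter. Of 4124 genes, 3 passed between day-60 tdTomato (2 libraries) and Troy-GFP (4 libraries), a share of 0.0727%, and 248 had an unadjusted p below 0.05. On simulated sums, this fit called 1.1% of genes changed by a log2 of 1 and 23% of those changed by 2. So few calls therefore do not show that the sorts are alike. Ttr had 611 and 873 CPM in day-60 tdTomato, against 0, 12.7, 0 and 185 CPM in Troy-GFP (log2 fold 5.38 ± 1.09, limma adjusted p = 0.0381). The same sort had the highest Ttr in Thbs4-0 wells, and the call was lost without any 1 of 4 libraries (both of day-60 tdTomato, and Troy-GFP library 2 or 4), at folds of 5.16 to 6.21. The unnamed transcripts 6330403K07Rik (1.99) and Gm1821(chr14) (3.58) also passed. Limma trend called 0. Within the flow cell shared by both day-60 tdTomato libraries and Troy-GFP libraries 3 and 4, these 3 genes passed again, with a Ttr fold of 4.54 ± 0.87 (limma adjusted p = 0.00119). Sort, mouse line, age and tamoxifen differ together here and cannot be told apart.

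The Thbs4 contrast itself differed between day-60 tdTomato and Troy-GFP for 12 of 4092 genes (0.293%), with 287 at an unadjusted p below 0.05. Enpp2, the lysophospholipase autotaxin, which the choroid plexus also makes, had 0 and 83.8 CPM in Thbs4-positive day-60 tdTomato sums, against 987 and 1465 CPM in Thbs4-0 sums. In Troy-GFP it had 110 to 182 CPM in Thbs4-positive sums, against 27.8 to 56.3 CPM in Thbs4-0 sums. The difference of the log2 folds was -6.60 ± 0.97 (limma adjusted p = 6.01e-07), and -3.80 without wells of mixed identity, where it did not pass (adjusted p = 0.193). Enpp2 is itself among the markers that define such wells, so this change follows in part from the filter. The ribosomal protein genes Rpl41, Rpl13, Rpl32, Rpl6, Rplp0 and Rpsa were in this set with larger folds in day-60 tdTomato. Rpl41, at 1.48 ± 0.28, was at 1.10 and did not pass without day-60 tdTomato library 2. Of the 12, limma trend and a voom fit without the library block called 0, and 2 genes passed at equal depth.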

How the data were processed

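The authors deposited 1 table per library with a value for each gene and well, made from reads mapped with BWA 0.6.2-r126 to mm10, per the submitters' processing notes; other upstream settings are not given in the sources used here. The deposited values, a unit recorded as other, are transcript estimates: 4800995 of 4801006 values above 0 equalled the collision correction of a whole number of 256 random barcodes, within 1e-06. They are no raw counts, so count models were not run. ERCC rows stayed out of totals, and Prom1/CD24 libraries held few passing wells. Libraries held 77795 to 575257 transcripts, and 0 passing wells of a sort had identical profiles. Cells were sorted singly, so no doublet caller was used.

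Wells were not treated as replicates: transcripts were summed per library and Thbs4 class and tested with limma 3.58.1 (voom) in R 4.3.3, with the library as a block. Genes needed a mean of 50 CPM over the fitted sums, and adjusted p-values are Benjamini-Hochberg over all genes tested. A gene low in 1 class could thus enter the test through the other class alone. Scaling used trimmed means of M values over genes with a mean of at least 200 CPM, a choice made after scaling factors were seen; all genes were used as an alternative. Shares and well properties were tested by exact permutation over libraries (scipy 1.17.1). The steps were tested on simulated sums with an assumed spread. Between Thbs4 classes, 31.4% of genes changed by a log2 of 1 and 91.6% of those changed by 2 were called. Between sorts, 1.1% and 23% were called. Genes were named by a fixed rule: the markers and gate genes, the 12 highest and 12 lowest folds that passed with 1 sign in each sort with 3 or more fitted libraries, up to 4 passing and 2 other members per list, Ttr between sorts, and up to 6 genes of the difference between sorts. Further list members were named after their values were seen, and some genes that the rule names are not reported here. The members and lists were chosen with earlier results of these data known. Replicate numbers are not said to mark a shared mouse or day, so the main fits did not use them to pair sorts.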

Additional observations from a re-analysis of the deposited data

Results flagged for a closer look

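In groups of 4 Troy-GFP libraries, 14 of 165 sets of values held 1 library far from the other 3, where chance gives about 1 in 20. In Thbs4-positive sums, library 3 was far above the others for Igtp (546 CPM), Isg15 (288 CPM), Dbx2 (161 CPM) and Car2 (117 CPM). Library 1 was far above for Lhx2 (627 CPM), library 2 for Elovl2 (12.1 CPM) and library 4 for Ttr (178 CPM). In Thbs4-0 sums, library 3 was far above for Aqp4 (1655 CPM), Cd81 (1571 CPM), Hapln1 (360 CPM) and Dhrs3 (209.9 CPM). Library 4 was far above for Ttr (895 CPM) and Notum (81.3 CPM), and library 2 far below for Bmpr1a (66.2 CPM).

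The effect of Thbs4 class differed between day-60 tdTomato and Troy-GFP, by the limma test of the difference, for Enpp2 (-6.60 on the log2 scale). Rpl32 (2.39), Rpl13 (1.55) and Rpl41 (1.48) had larger folds in day-60 tdTomato. Of these 4, all but Enpp2 lost the call without day-60 tdTomato library 2, and the values then were 0.25 for Rpl32, 1.11 for Rpl13 and 1.10 for Rpl41.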

How the results depend on the processing

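Against 658 called genes between Thbs4 classes, 1609 were called with no filter on low levels, 363 at equal depth, 101 by limma trend and 119 within GLAST/EGF. Scaling over all genes gave 564 (142 higher, 422 lower), thinning to 1000 transcripts 735 (649 higher, 86 lower), and within day-60 tdTomato 465 (404 higher, 61 lower). Fits without 1 library gave 482 to 773. Of 71 named genes tested by limma trend, 22 passed, while 64 of 76 kept direction and call at equal depth. Scaling by totals alone and a minimum of 2000 transcripts per well changed no call or sign of these genes.

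Between sorts, 3 genes became 1 at a mean of 100 CPM, 0 by limma trend, with at least 5 wells or with Thbs4 of at least 3, and 14 with a replicate block, and 0 to 3 without 1 library. The difference between libraries 2 and 3 had a correlation of -0.0385 between the sorts, over 809 genes. This check covered only that difference, so it cannot decide whether library numbers pair the sorts. The 12 differences of the contrast became 4 without a filter, 5 at a mean of 100 CPM, 2 at equal depth, 0 by limma trend, 4 thinned to 1000, 53 with at least 5 wells, 2 at a gate of 60, 5 at Thbs4 of at least 3, 2 without mixed wells and 0 with no replicate block; they were 5 to 53 without 1 library, the lowest without day-60 tdTomato library 2. Causes were not tested.

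Shares without 1 library differed by -18.5 to -16.6 points (day-60 tdTomato minus Troy-GFP), -18.2 to -13.1 (GLAST/EGF minus Troy-GFP) and -4.43 to 0.695 (day-60 tdTomato minus GLAST/EGF, reversed without GLAST/EGF library 2); 4 against 3 libraries cannot reach 0.05. Counting wells with 1 Thbs4 transcript as members gave -7.70 for that last pair, past the threshold (exact permutation, adjusted p = 0.0286). The difference in genes per well was 16.8 at 1000 transcripts and 22.9 to 39 without 1 library, and passed in the first case and without GLAST/EGF library 2; the ERCC difference was 0.146 to 0.494.

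Signs turned, cause not tested, for genes near 0 or in small subsets. With scaling over all genes these were Ccnd2 (-0.18), Cd81 (-0.23), Rorb (-0.24) and Sox9 (-0.26). Within GLAST/EGF they were Ccnd2 (-0.70), Cd81 (-0.087), Crym (0.83), Dbx2 (0.36), Dkk3 (-0.26), Dner (0.51), Ecel1 (-1.07), Hapln1 (0.31), Igfbp5 (-0.22), Il33 (0.50), Ntsr2 (0.20), Rgcc (0.67) and Sox9 (-0.098). Within day-60 tdTomato they were Crym (0.0078), Egfr (0.19), Lhx2 (-0.51), Rorb (-0.22) and Slc2a1 (0.018). Others were Ccnd2 at equal depth (-0.0057), at Thbs4 of at least 3 (-0.023) and without day-60 tdTomato library 2 (-0.11, the highest 0.31), Cd81 thinned to 1000 (-0.21) and without Troy-GFP library 2 (-0.025, with 0.15 the highest without 1 library), Rorb by limma trend (-0.063) and without Troy-GFP library 4 (-0.013, the highest 0.13), and Ttr without mixed wells (0.034). Ttr is among the markers that define mixed wells.

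Depth limits all of this: the 4 fitted libraries outside Troy-GFP held 3 to 5 members each, which can miss large changes as well as small ones.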

Other observations

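The 2 Prom1/CD24 members entered no fit. Both carried Gfap and Igfbp5, 1 carried Sfrp1 and 1 Notum, and neither carried Ecel1 or Egfr.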
